A study of Mus musculus with 18 samples.

Results

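BMS753, which the labels describe as specific for retinoic acid receptor α (RARα), was given to F9 cells at 1 µM, and RNA was measured after 2, 6, 24 and 48 h with 1 array at each time. F9 is an established mouse embryonal carcinoma line, grown here on gelatine-coated plates with serum. These 4 arrays, out of 18 in the series, were taken by their labels and set against the 2 arrays of cells given the ethanol vehicle for 48 h. The other arrays held all-trans retinoic acid (ATRA, 1 µM), BMS641 (RARβ-specific per the labels, 1 µM) and BMS961 (RARγ-specific per the labels, 0.1 µM), each at the same 4 times. No group carried a genetic change, and since no label tells if the pair of vehicle arrays stems from 2 cultures, what separates them could be technical. Vehicle was measured at 48 h only, so for the 2, 6 and 24 h arrays BMS753 and the length of culture cannot be told apart.

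Retinoic acid receptors bind DNA as partners of retinoid X receptors at response elements made of repeated half-sites. Without ligand they recruit corepressors, and with ligand they exchange these for coactivators. In F9 cells retinoids are known to turn on genes of retinoid breakdown and of the receptors themselves, and to start differentiation toward primitive endoderm. RARγ is the receptor most often tied to that differentiation, and RARα-selective ligands are used to ask which targets the RARα receptor can reach.

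The best known response element is a direct repeat of a half-site with a spacing of 5 bases (DR5). The half-site AGGTCA, its variant AGTTCA, the variant GGGTCA and the variant GGTTCA were searched on both strands of the RefSeq promoter windows (250 bases before to 50 after each start, build GRCm38.p6), with 5 bases of any kind between them. A DR5 was in 32 of 32851 windows (0.0974%), or by gene in 31 of 27025 genes with a window. Among the 56 genes with a window, of the 74 described below, it was in 2, Cyp26a1 and Rarb. The spacings of 1 and 2 bases, in 0.222% and 0.268% of all windows, were in none of those genes' windows. The 250 bases before the start are shown for both DR5 genes, whose time courses differed, and for Stra8, which had no DR5 there. Capitals mark the DR5 in Cyp26a1 and Rarb and the single half-sites in Stra8. Cyp26a1 lies at chr19:37697558-37697807 on the + strand, Rarb at chr14:16575477-16575726 on the - strand and Stra8 at chr6:34920698-34920947 on the + strand.
Cyp26a1: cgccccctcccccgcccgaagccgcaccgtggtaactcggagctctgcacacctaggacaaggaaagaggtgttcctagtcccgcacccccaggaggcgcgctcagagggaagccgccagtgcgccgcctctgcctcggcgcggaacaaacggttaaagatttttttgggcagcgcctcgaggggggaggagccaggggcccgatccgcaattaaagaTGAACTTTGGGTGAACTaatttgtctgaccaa
Rarb: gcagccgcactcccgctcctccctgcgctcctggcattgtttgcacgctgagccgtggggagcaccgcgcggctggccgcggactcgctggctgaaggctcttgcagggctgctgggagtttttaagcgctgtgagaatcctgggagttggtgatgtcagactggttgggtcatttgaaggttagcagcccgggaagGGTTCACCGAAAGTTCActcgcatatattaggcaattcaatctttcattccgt
Stra8: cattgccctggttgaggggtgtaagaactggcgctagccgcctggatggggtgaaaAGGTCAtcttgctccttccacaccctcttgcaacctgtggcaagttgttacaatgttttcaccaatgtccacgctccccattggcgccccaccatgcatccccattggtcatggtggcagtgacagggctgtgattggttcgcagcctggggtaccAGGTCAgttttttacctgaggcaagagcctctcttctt
The DR5 of Cyp26a1 covered the bases 32 to 16 before the start and read on the opposite strand, and that of Rarb covered the bases 53 to 37 on the gene's own strand. These matches describe letters only and show no binding.

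The deposited values were log2 levels, and 19938 genes were compared, with medians of all probe sets between 5.32 and 5.46 on the 6 arrays. The number of arrays limits the precision. All 10 markers of embryonal carcinoma cells lay above the array median on all 6 arrays, with medians of 11.04 to 11.75. None of 5 trophoblast markers did so on any of the 6 arrays, while 3 of 4 neural markers did so on all 6, and 1 to 4 of 6 fibroblast and 0 to 3 of 6 visceral endoderm markers did so, depending on the array. Of 11 parietal endoderm markers, 7 lay above the array median on every one of the 6, vehicle included. The vehicle arrays stood apart from each other: 665 genes differed at least 2-fold between them, 311 of them higher in replicate 1. Over all genes, each BMS753 array lay nearer to replicate 2, with median absolute differences of 0.112 to 0.180 against 0.195 to 0.221 to replicate 1. The 4 ATRA arrays lay nearer to replicate 1. Replicate 1 carried more RNA of several retinoid targets than replicate 2: Stra8 stood at 8.44 against 5.17 and Aqp3 at 8.88 against 5.95. What part this difference had in the results was not tested. A gene was therefore counted at a given time only where its level lay at least 2-fold above the higher, or below the lower, of the vehicle arrays. Where a gene lies in this way is a value with no test, since each time had 1 array.

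By that count the response was small at first and grew. At 2 h 1 gene was higher (0.00502% of all genes) and 4 were lower (0.0201%). At 6 h 4 were higher (0.0201%) and 1 was lower (0.00502%). At 24 h 19 were higher (0.0953%) and 5 lower (0.0251%), and at 48 h 50 were higher (0.251%) and 15 lower (0.0752%). In all, 74 genes (0.371%) were past both vehicle arrays at 1 or more of the times. The same count at 2, 6, 24 and 48 h was 0, 3, 1 and 2 genes with BMS641 and 143, 120, 166 and 766 with ATRA at the same dose. With BMS961, at the lower dose, it was 7, 29, 118 and 272. All 4 ligands were set against the same vehicle arrays. Against replicate 1 alone the BMS753 counts ran from 532 at 2 h to 343 at 48 h, and against replicate 2 alone from 53 at 2 h to 418 at 48 h.

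**Figure D1:**
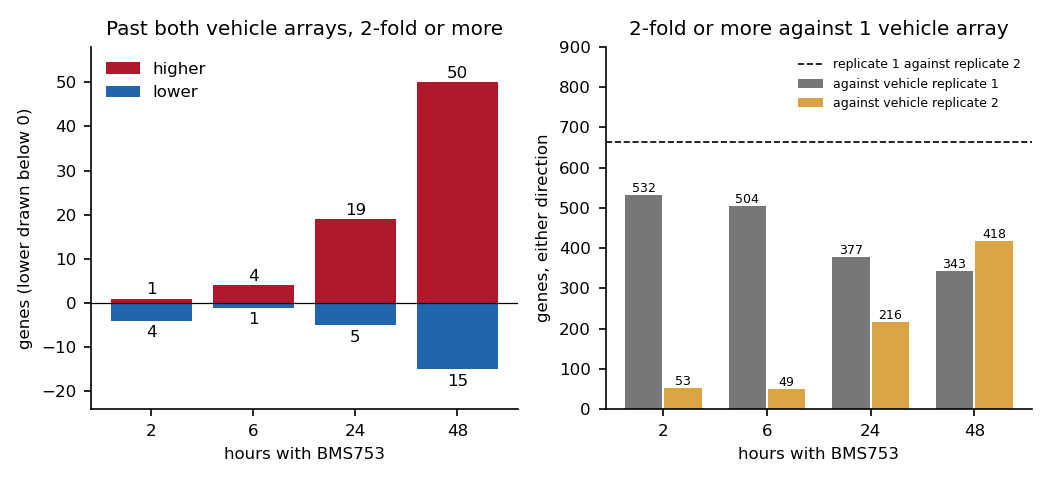
Left, genes at least 2-fold past both vehicle arrays at each time with BMS753 (red above 0, higher; blue below 0, lower). Right, genes at least 2-fold away from vehicle replicate 1 (grey) or replicate 2 (gold) alone, with the 665 genes that differ between the vehicle arrays as a dashed line; against replicate 2 the counts are larger at 24 and 48 h than at 2 and 6 h, and against replicate 1 smaller.

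The immediate response was led by Cyp26a1, the cytochrome P450 that hydroxylates retinoic acid for its removal. Cyp26a1 stood at 5.05 and 4.85 on the vehicle arrays and at 6.56, 7.00, 6.16 and 5.57 after 2, 6, 24 and 48 h with BMS753. All 4 BMS753 arrays lay above both vehicle arrays, and the level was highest at 6 h, 3.86-fold past the nearer vehicle array, and nearest to vehicle at 48 h, 1.43-fold past it. It was the 1 gene higher by the 2-fold count at 2 h. Its mean over 2 and 6 h was 1.83 ± 0.31 log2 above vehicle (SE of the limma fit to all 18 arrays), with a Benjamini-Hochberg adjusted p of 0.394, and the later minus the earlier mean was -0.91 ± 0.31, with an adjusted p of 0.559.

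Other genes lay above both vehicle arrays from 2 h on, each with a course of its own. Gadd45b, a stress and growth arrest gene, stood at 7.76 and 7.33 with vehicle and at 8.72, 8.58, 8.64 and 8.61 over the time course. It was at one plateau at every time, above both vehicle arrays, and never reached 2-fold past the nearer of them. Plk3, a polo-like kinase of the stress response, stood at 7.51 and 7.36 with vehicle and at 8.44, 8.49, 8.73 and 8.88. Cpne5, which encodes a calcium-dependent phospholipid-binding copine, stood at 6.04 and 5.91 with vehicle and at 6.71, 7.16, 7.36 and 6.89, highest at 24 h. Lgals9 (galectin-9) and Itga3 (integrin α3) were first past both vehicle arrays at 6 h, by 1.02 and 1.01 log2, and again at 24 h.

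Otx2 was the 1 gene past both vehicle arrays in the same direction at all 4 times. It encodes a homeobox factor of the epiblast and the anterior neural plate, and stood at 9.63 and 9.46 with vehicle and at 8.40, 8.28, 7.40 and 7.12 with BMS753. Every step went further down, to 5.07-fold below the nearer vehicle array at 48 h. Fst encodes follistatin, a secreted binder of activin, and stood at 7.88 and 8.15 with vehicle and at 6.81, 6.91, 5.98 and 6.09. It lay in a first plateau at 2 and 6 h and a lower one at 24 and 48 h, and missed the 2-fold line at 6 h, at -0.97 log2. The other genes lower at 2 h were H2ac4, a replication-dependent histone gene, at 8.06 against 9.22 and 9.39 with vehicle, and Plag1, a zinc finger factor gene, at 5.73 against 7.38 and 6.75. Both lay within 2-fold of the nearer vehicle array at each later time, and no other gene past at 2 or 6 h did so at 24 and 48 h.

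**Figure D2:**
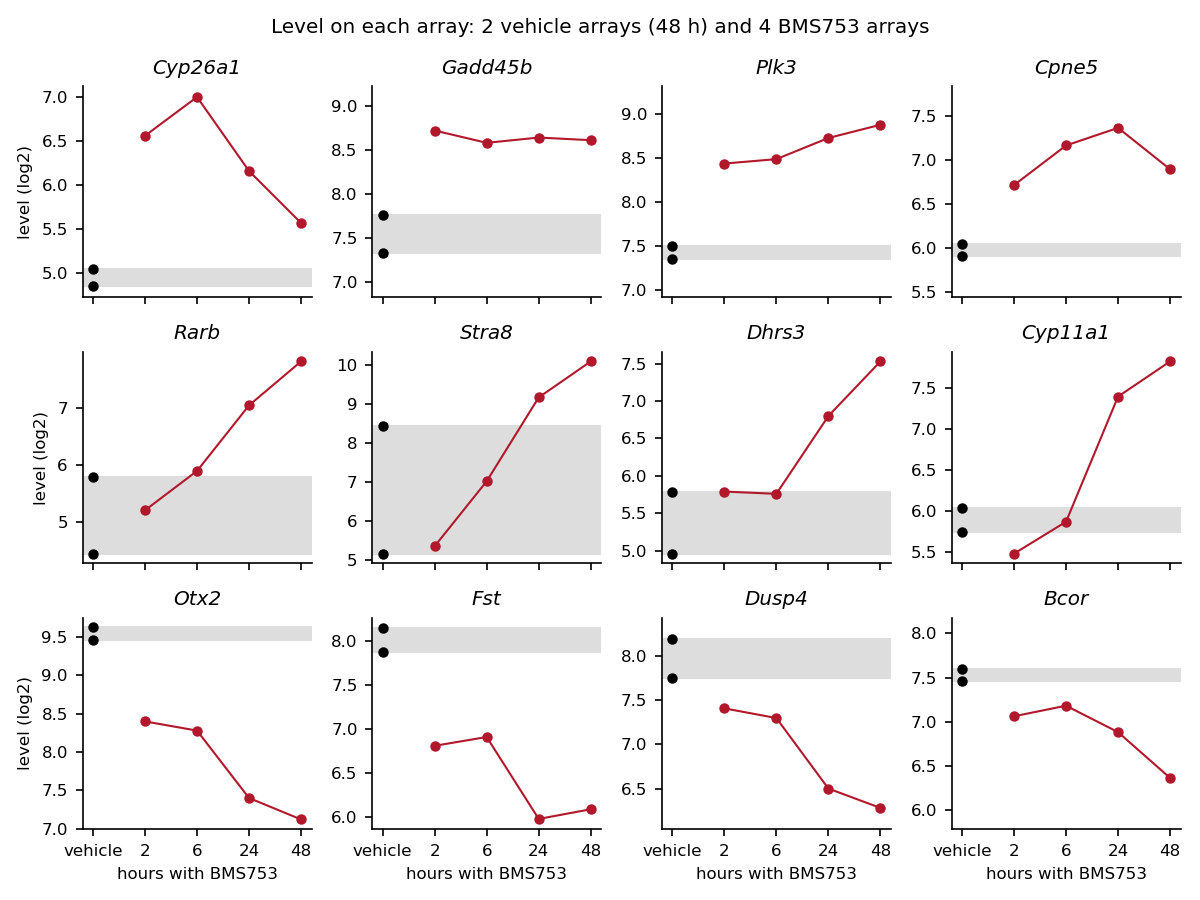
Deposited log2 level of 12 genes on each vehicle array (black points; the grey band spans them) and on the BMS753 array of each time (red line, 1 array per time); each panel has its own axis. Cyp26a1 is highest at 6 h, Gadd45b is level from 2 h, Rarb, Stra8, Dhrs3 and Cyp11a1 lie clear above the band at 24 and 48 h, and Otx2 and Fst lie below it at every time.

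The larger part of the response built up after 6 h. Of the 74 genes, 18 were first past both vehicle arrays at 24 h and 48 at 48 h (15 and 37 of them higher). A steady course, with the level moving the same way at each step from 2 to 48 h and past both vehicle arrays at 48 h, was found for 47 genes, 39 of them upward. Rarb, the gene of retinoic acid receptor β, stood at 5.79 and 4.45 with vehicle and at 5.21, 5.90, 7.05 and 7.82, within the vehicle range at 2 h, just above it at 6 h and 4.08-fold past the nearer vehicle array at 48 h. Cyp11a1, whose enzyme starts steroid hormone synthesis by cutting the cholesterol side chain, stood at 6.04 and 5.75 with vehicle and at 5.48, 5.87, 7.40 and 7.83. It was below both vehicle arrays at 2 h, between them at 6 h and 3.44-fold above the nearer one at 48 h.

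Dhrs3, a retinaldehyde reductase that limits retinoic acid formation, stood at 5.78 and 4.96 with vehicle and at 5.79, 5.76, 6.80 and 7.53. Stra8, a retinoid-induced gene needed for entry into meiosis in germ cells, stood at 8.44 and 5.17 with vehicle and at 5.36, 7.02, 9.16 and 10.08. It climbed at each step, yet its 2 and 6 h levels lay within the wide vehicle range, and at 48 h it was 3.12-fold past replicate 1 and far above replicate 2. Aqp3, an aquaglyceroporin gene, had a like course, with 8.88 and 5.95 for vehicle and 7.69, 8.59, 9.88 and 10.30 with BMS753.

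Among the genes of lower level at the end, Trh, which encodes the thyrotropin-releasing hormone precursor, stood at 11.17 and 12.05 with vehicle and at 11.86, 11.96, 9.99 and 9.39. It lay within the vehicle range at 2 and 6 h and below it later. Dusp4, a phosphatase of MAP kinases, stood at 8.20 and 7.75 with vehicle and at 7.41, 7.30, 6.50 and 6.28, lower at each step. Lefty2, a secreted Nodal antagonist, stood at 10.24 and 8.71 with vehicle and at 8.31, 8.67, 8.04 and 7.18. Dnmt3l, a cofactor of de novo DNA methylation, was at 10.46, 10.12, 8.98 and 7.84 over the time course against 9.03 and 10.49 with vehicle, and passed the 2-fold line at 48 h only.

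**Figure D3:**
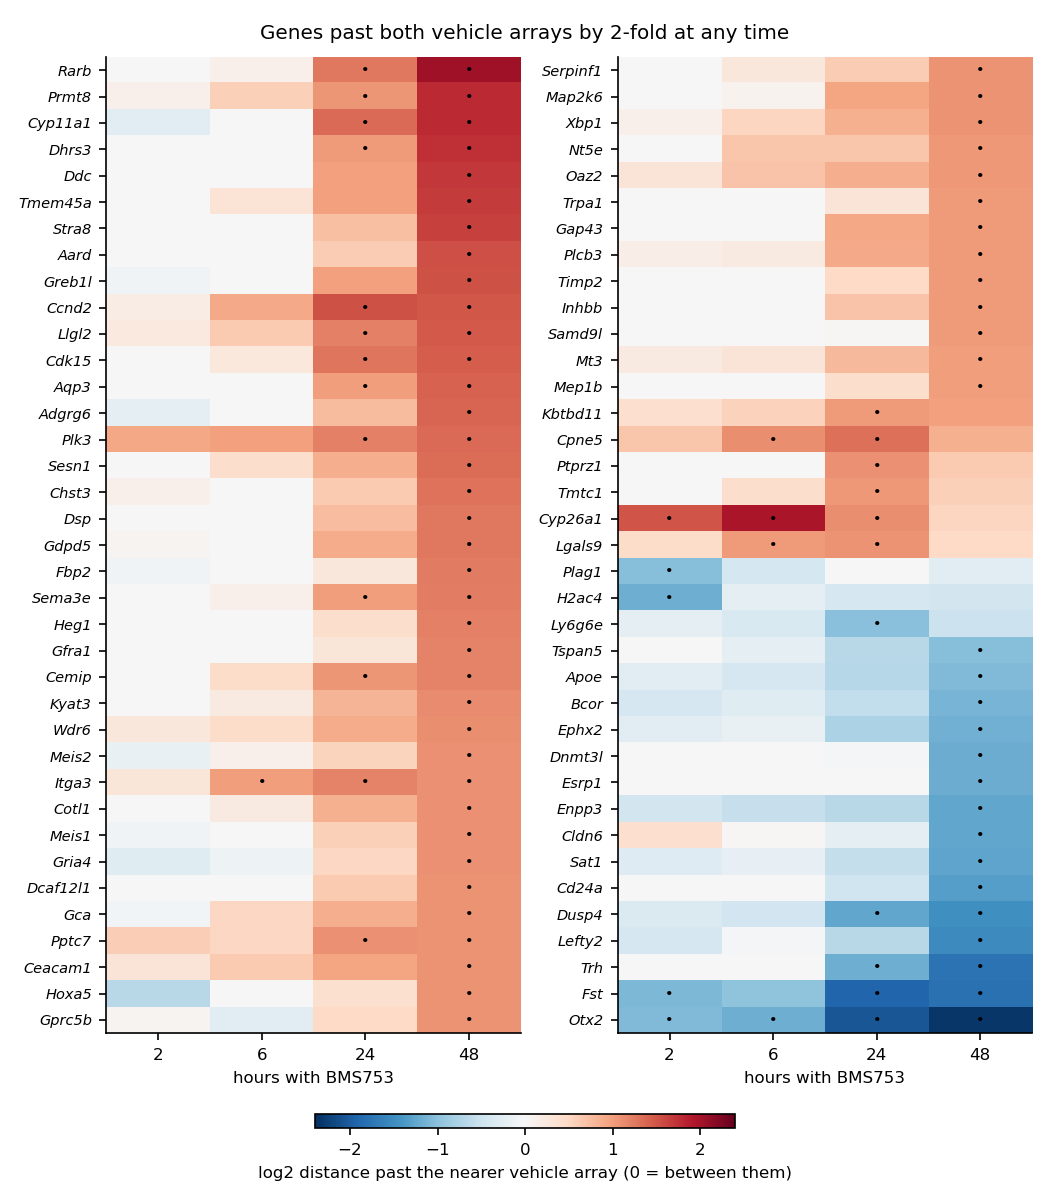
The 74 genes past both vehicle arrays by at least 2-fold at 1 or more times, ordered by their value at 48 h from the highest (top left) to the lowest (bottom right). Colour is the log2 distance past the nearer vehicle array (white, between the vehicle arrays) and dots mark 2-fold or more; most dots are in the 24 h and 48 h columns, and Otx2 has dots at all 4 times.

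The 24 and 48 h arrays were then averaged as late and the 2 and 6 h arrays as early, and tested against vehicle with limma over all 18 arrays. No gene was called early at a Benjamini-Hochberg adjusted p under 0.05 (0% of 19938). At an unadjusted p under 0.05 there were 1115, and the lowest adjusted p was 0.216. The early count did not change without vehicle replicate 1 and rose without replicate 2. Late, 34 genes rose (0.171%) and 3 fell (0.015%), and 24 of the 37 changed at least 2-fold. The rises ran from 0.70 to 2.31 log2, and both late arrays lay outside the vehicle range in the same direction for all 37. The count rested on both late arrays and on the normalization: it was 0 without the 24 h array, 1 without the 48 h array and 1 after quantile normalization. It rose with either vehicle array left out, but there the difference between the vehicle arrays no longer entered the error of the fit. All 37 kept their sign in each of these fits. With a vehicle array left out the sign could not change, since both late arrays lay outside the vehicle range.

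Among the called genes Rarb rose most, by 2.31 ± 0.35 log2 late (95% interval 1.55 to 3.07, adjusted p = 0.0382 in limma). The size of its rise depended on the vehicle array, at 2.98 log2 without replicate 1 and 1.64 without replicate 2. Cyp11a1 rose by 1.72 ± 0.21 (1.25 to 2.19, adjusted p = 0.0367). Fdx1, the ferredoxin that passes electrons to the Cyp11a1 enzyme, also rose, by 0.73 ± 0.12 (adjusted p = 0.0418), and was named after its value was seen. Greb1l rose by 1.63 ± 0.24, with a further probe set of the gene 2.33 log2 above the vehicle mean at 48 h against 1.91 for the one used. Next came Cdk15, which encodes a cyclin-dependent kinase family member, at 1.63 ± 0.27 and Llgl2, a gene of basolateral cell polarity, at 1.58 ± 0.24. Tmem45a, a transmembrane protein gene, rose by 1.45 ± 0.20.

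Ddc, the decarboxylase of dopamine and serotonin synthesis, rose by 1.43 ± 0.19, with levels of 6.81 and 6.64 on the vehicle arrays and 6.74, 6.76, 7.79 and 8.50 over the time course. Its early arrays lay within the vehicle range and its late ones well above it. The called rises also included Plk3 (1.37 ± 0.21), Sesn1, a p53 target encoding sestrin 1 (1.31 ± 0.20), Gadd45b (1.08 ± 0.18) and Bak1, a pro-apoptotic BCL2 family gene (0.76 ± 0.12). Others were Sema3e, a guidance ligand gene (1.22 ± 0.17), Pbx2, a homeodomain partner of Hox proteins (0.82 ± 0.14), Gys1, the muscle-type glycogen synthase gene (0.72 ± 0.12), and Lipe, the hormone-sensitive lipase gene (0.93 ± 0.13). The adjusted p of these genes lay between 0.0367 and 0.0467. Bak1, Pbx2, Gys1 and Lipe were named after their values were seen.

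The 3 called falls were Otx2, by 2.28 ± 0.38 log2 (adjusted p = 0.0440), Fst, by 1.98 ± 0.16 (adjusted p = 0.000835), and Bcor, a BCL6 corepressor gene, by 0.91 ± 0.14 (adjusted p = 0.0389). Bcor stood at 7.60 and 7.46 with vehicle and at 7.06, 7.18, 6.88 and 6.36, below both vehicle arrays at each time. Without vehicle replicate 1, Otx2 had an adjusted p of 0.0558. Fst had the lowest adjusted p among the 37 and was the 1 gene still called without the 48 h array, and the 1 called after quantile normalization.

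Stra8 and Aqp3 had larger late differences than any called gene, and Dhrs3 and Ccnd2 larger ones than most. None of these genes was called. Stra8 differed by 2.82 ± 0.85 log2 (adjusted p = 0.311) and Aqp3 by 2.67 ± 0.76 (adjusted p = 0.288), both with a wide vehicle pair. Both differences depended in size on the vehicle array, since replicate 1 lay nearer to the late BMS753 levels than replicate 2. Dhrs3 differed by 1.80 ± 0.42 (adjusted p = 0.165) and Ccnd2, the cyclin D2 gene, by 1.92 ± 0.48 (adjusted p = 0.191). Ccnd2 stood at 7.71 and 8.53 with vehicle and at 8.72, 9.44, 10.07 and 10.03 over the time course, above both vehicle arrays at each time.

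Late against early, 1 gene was called higher (0.00502%) and 0 lower (0%), with 1411 at an unadjusted p under 0.05. That gene was Cyp11a1, by 1.94 ± 0.21 log2 (adjusted p = 0.0280), and it was not called when any of the 4 BMS753 arrays was left out. Likeness to the course of Cyp26a1 was described by Pearson's correlation over the 6 arrays among genes past both vehicle arrays at 2 or more times. It was highest for Cpne5 (0.798), Lgals9 (0.764), Plk3 (0.681) and Itga3 (0.603), points that share the vehicle arrays.

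The lists are read beside the 0.371% of all genes that passed both vehicle arrays at any time. Late calls are read beside the 0.171% of all genes called higher and the 0.015% called lower. Of 6 receptor genes measured, 1, Rarb, passed and was called late. Rara, the gene of the receptor that BMS753 is described to bind, stood at 7.63 and 7.82 with vehicle and at 8.28, 8.50, 8.23 and 8.15 with BMS753, above vehicle at every time and 1.25-fold past it at 48 h. Rarg stood at 8.90 and 9.09 with vehicle and at 9.72, 9.65, 9.60 and 9.39. Neither was called late, with adjusted p of 0.561 and 0.280. Rxra differed by 0.16 log2 late (95% interval -0.11 to 0.42) and Rxrb by 0.04 (-0.27 to 0.36). Of 17 genes of retinoid metabolism, transport and binding, Cyp26a1 and Dhrs3 passed both vehicle arrays and none was called late. Cyp26b1, the related hydroxylase gene, stood at 5.54 and 5.79 late against 5.94 and 5.33 with vehicle. The binding protein gene Crabp2 stood at 5.81 and 6.19 with vehicle and at 6.66, 6.59, 7.12 and 6.30. Of 13 receptor corepressors and coactivators none was past both vehicle arrays at any time, and the largest distance was 0.62 log2.

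Among 16 early retinoid targets outside the Hox clusters, 4 passed both vehicle arrays, namely Stra8, Aqp3, Meis1 and Meis2, and none was called late. The Hox cofactor gene Meis1 stood at 4.93 and 5.16 with vehicle and at 4.85, 5.01, 5.73 and 6.26, and Meis2 at 7.02 and 6.95 with vehicle and at 6.77, 7.13, 7.56 and 8.12. Of 37 Hox genes measured, Hoxa5 passed, at 48 h. It stood at 5.57 and 5.52 with vehicle and at 4.86, 5.52, 5.95 and 6.64, below vehicle at 2 h and 2.11-fold above at 48 h. Hoxb1, a direct retinoid target in the embryo, stood at 5.66, 5.65, 5.31 and 5.47 with BMS753, within the vehicle pair of 5.76 and 5.15. The largest distance past both vehicle arrays was 0.35 log2 in cluster B and 0.37 in clusters C and D.

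Of 26 pluripotency genes 0 were past at any time and 0 were called late, counts that do not set the list apart from all genes, of which 0.371% passed. The largest distance in the list was 0.50 log2. Pou5f1, the OCT4 gene, stood at 12.20 and 12.08 with vehicle and at 12.04, 12.09, 12.14 and 12.12 with BMS753. Its late difference was -0.01 log2, with a 95% interval of -0.26 to 0.23. Sox2 stood at 11.91 and 11.72 with vehicle and at 11.62, 11.65, 11.69 and 11.59, and Nanog at 12.07 and 11.08 with vehicle and at 11.70, 11.78, 11.89 and 11.95. Klf4 differed between the vehicle arrays themselves, 10.46 against 7.20, with BMS753 levels of 7.40 to 8.78 between them. The median late difference of the list was -0.11 log2, against 0.01 over all genes.

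Of 22 genes of primitive and parietal endoderm, the fate that F9 cells are known for, 2 passed (against 0.371% of all genes), Cyp11a1 and Fst; the known role of Fst is activin binding. Gata6, a master factor of primitive endoderm, stood at 7.08 and 6.03 with vehicle and at 6.35, 6.60, 7.41 and 8.03, 1.93-fold past the nearer vehicle array at 48 h, with a late difference of 1.17 log2 and an adjusted p of 0.545. Gata4 stood at 6.44 and 6.80 late, within its vehicle pair of 7.26 and 6.28. Of 22 basement membrane and collagen folding genes none passed. The laminin gene Lama1 stood at 7.04 and 6.96 with vehicle and at 7.05, 6.88, 7.07 and 7.24, and the collagen gene Col4a1 at 7.24 and 6.04 with vehicle and at 6.55, 6.34, 6.53 and 7.27. Of 16 visceral endoderm genes Apoe, the apolipoprotein E gene, passed, at 11.96 and 10.99 with vehicle and 10.74, 10.58, 10.30 and 9.93 with BMS753, lower at each step.

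Of 18 genes of NODAL, BMP and TGF-beta signalling, Fst, Lefty2 and Inhbb passed, and Fst was called late. Inhbb, the activin βB subunit gene, stood at 7.74 and 6.28 with vehicle and at 7.28, 7.61, 8.43 and 8.76. It lay within the vehicle range early and above it late, with a late difference of 1.58 log2 and an adjusted p of 0.148. Nodal stood at 9.74, 9.50, 9.43 and 9.23 with BMS753, against 9.40 and 8.90. In the epiblast and DNA methylation list Otx2 and Dnmt3l passed of 13, and Dnmt3a, a de novo methyltransferase gene, stood at 9.69 at 48 h against 8.75 and 8.24, 1.92-fold past. In each of the lists of FGF and ERK feedback (Dusp4, of 16), neural genes (Gap43, of 15), growth regulators (Ccnd2, of 23) and p53 targets (Sesn1, of 14), 1 gene passed.

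Across the 28 lists, 19 of 433 distinct genes passed at any time, against 0.371% of all genes. Of the 433, 6 were called late, against 0.171% of all genes called higher and 0.015% called lower. In 16 lists no member was past, which does not set these lists apart from all genes, of which 0.371% passed. Those 16 included DNA replication, mitosis, WNT signalling, mesoderm, ribosomal proteins, stress response and interferon response. Of the 74 genes that passed, 55 were in no list. In the cholesterol synthesis list the median at 48 h was 1.14 log2 against vehicle replicate 1 and 0.09 against replicate 2. That spread matched the vehicle arrays, whose replicate 1 lay 1.06 below replicate 2 in the median of this list. In the pluripotency list the same medians were -0.33 and 0.00. Over all genes, 58.41% had levels within 0.5 log2 of each other on the 6 arrays, and 99.63% were never past both vehicle arrays by 2-fold. Fewer cells of a kind and less RNA in each cell cannot be told apart in these bulk measurements.

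**Figure D4:**
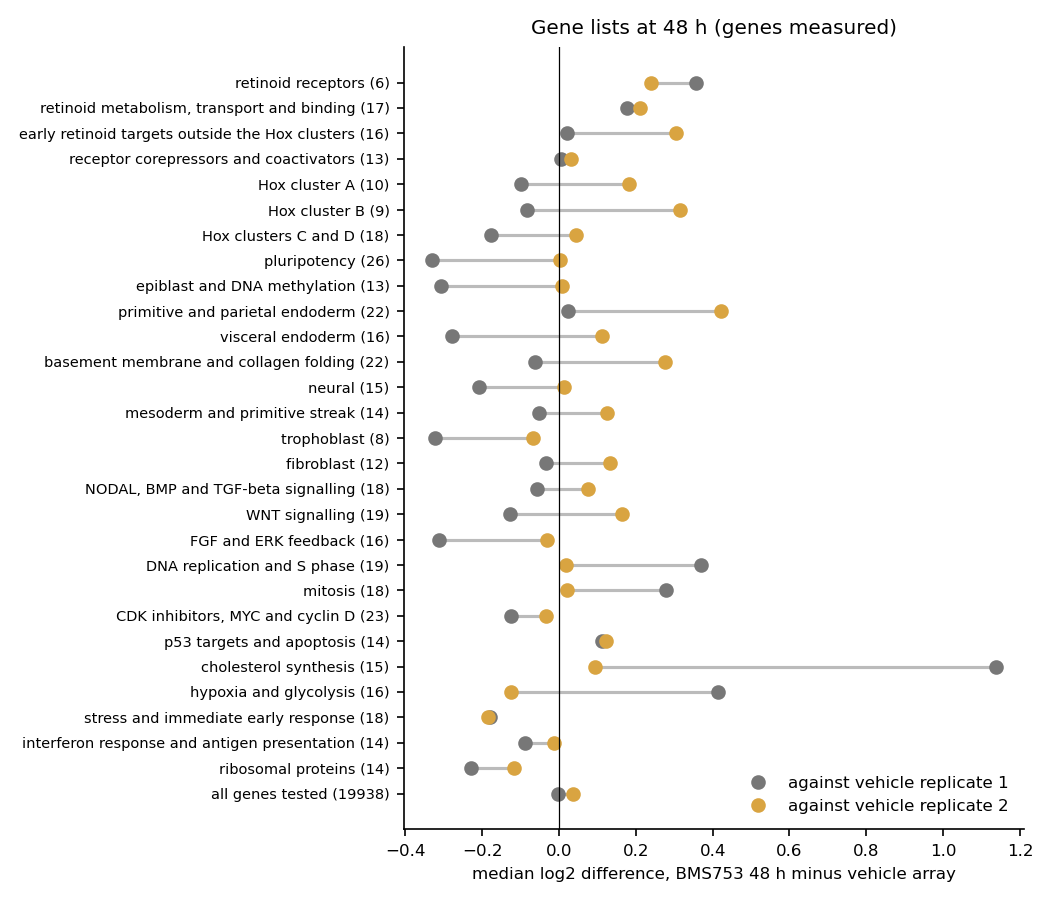
Median log2 difference at 48 h of the genes of each list (genes measured in brackets), BMS753 minus vehicle replicate 1 (grey) and minus vehicle replicate 2 (gold). The points of the cholesterol synthesis list lie farthest apart, at 1.14 and 0.09. The list of retinoid receptors lies above 0 against both. So do several others, cholesterol synthesis and retinoid metabolism, transport and binding among them.

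At the matched dose of 1 µM, BMS753 was set against BMS641 and ATRA in 2 planned pairs, both late, with p-values adjusted over all genes within each pair. Against BMS641 no gene was called (0%), with 810 at an unadjusted p under 0.05 and a lowest adjusted p of 0.0730, so a difference was not established by this test and the ligands are not shown to act alike. Rarb with BMS641 stood at 4.92, 5.03, 4.92 and 4.97, within the vehicle range at each time, and BMS753 lay 2.49 log2 higher late (95% interval 1.72 to 3.25, adjusted p = 0.0977). Cyp26a1 with BMS641 stood at 4.94, 4.86, 4.78 and 4.87. Fst with BMS641 stood at 7.38, 7.50, 7.33 and 7.13, below both vehicle arrays but above BMS753, by 1.19 log2 late (interval of the difference -1.54 to -0.85, adjusted p = 0.0792). Otx2 with BMS641 went from 9.27 at 2 h to 8.10 at 48 h, and Ccnd2 from 8.74 to 9.78, both outside the vehicle range at 48 h.

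Against ATRA late, 834 genes were higher with BMS753 (4.18%) and 766 lower (3.84%). The count was 56 without the BMS753 24 h array and 17 without the 48 h array, and the ATRA arrays were those nearer to vehicle replicate 1. Cyp26a1 was 5.62 ± 0.31 log2 lower with BMS753 (adjusted p = 8.27e-06): with ATRA it stood at 10.06, 10.30, 10.97 and 12.01, highest at 48 h, where BMS753 had its lowest level. Hoxa5 was 3.81 ± 0.18 lower (adjusted p = 2.6e-06), with 9.73 and 10.47 in the late ATRA arrays. Rarb was 1.40 lower (adjusted p = 0.0345) and Dhrs3 1.67 lower (adjusted p = 0.0353). Stra8 differed by 0.98 log2 (adjusted p = 0.530) and Cyp11a1 by 0.15 (adjusted p = 0.735). Higher with BMS753 than with ATRA were Notum, a WNT-inactivating deacylase gene, by 2.32 ± 0.21 (adjusted p = 0.000611), and Myc, the proto-oncogene, by 2.13 ± 0.49 (adjusted p = 0.0260). Neither Notum nor Myc was 2-fold past both vehicle arrays with BMS753 at any time, and neither was called late against vehicle.

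The change from early to late was compared between ligands in 2 further contrasts, added after the time courses had been seen. Against ATRA, 38 genes had a more upward change with BMS753 (0.191%) and 35 a more downward one (0.176%), and 6 or fewer were called without any one of the BMS753 arrays. Against BMS641 none was called (0%), with 310 at an unadjusted p under 0.05 and a lowest adjusted p of 1. Cyp11a1 differed from ATRA by 2.49 ± 0.30 log2 (adjusted p = 0.00932): with ATRA it stood at 8.11 and 7.92 early and 7.35 and 7.59 late. For Cyp26a1 the difference was -2.23 ± 0.44 with an adjusted p of 0.0669. BMS961, at 0.1 µM, gave 8.04, 9.07, 8.94 and 9.14 for Cyp26a1 and 5.95, 6.52, 8.05 and 8.52 for Rarb. Its values stand beside those of BMS753 with no comparison, since the doses differ.

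**Figure D5:**
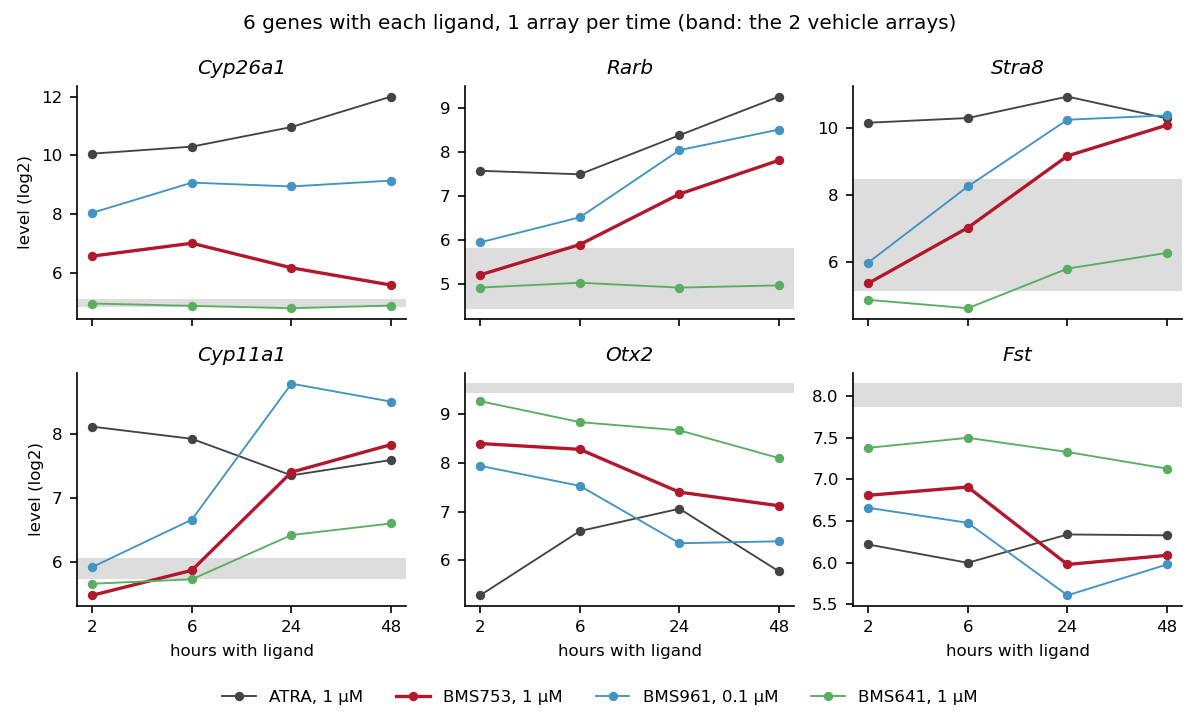
Log2 level of 6 genes at each time with BMS753 (red), ATRA (dark grey), BMS961 (blue, at a lower dose) and BMS641 (green), 1 array per point; the grey band spans the vehicle arrays and each panel has its own axis. Cyp26a1 with BMS753 peaks at 7.00 at 6 h while ATRA reaches 12.01 at 48 h, and Rarb with BMS641 stays in the band.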

How the data were processed

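Total RNA was biotin-labelled and put on 18 arrays. The deposited values are log2 levels by probe set; the submitters' processing notes name RMA and Affymetrix Expression Console 1.1. Which arrays shared a normalization is not given in the sources used here. Values were used as deposited. Of 35556 probe sets, 21789 had 1 gene symbol in the platform annotation, 1621 several and 12146 none listed; for the 999 genes with several, the brightest was taken, giving 19938 genes with no filter on dim ones. RMA summarises probes of a set, so levels of different genes were not compared.

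Single times were described as values: a gene was past when at least 2-fold beyond both vehicle arrays. Tests used limma 3.58.1 in R 4.3.3 on the 18 arrays together. The model had 9 means (1 for vehicle, and an early and a late one per ligand) plus steps shared by all ligands, 2 to 6 h and 24 to 48 h. There were 7 residual degrees of freedom and an eBayes prior of 4.55. Thus 2 times stood in for replicates, and p-values say nothing of the spread over independent cultures. Calls were at an adjusted p under 0.05 within each of 5 planned contrasts and 2 added after seeing the data. The fit was also run on simulated data with independent noise of the same spread on all arrays of a gene. Those data had no time steps and no built-in gap between the vehicle arrays. The run therefore does not show how the fit performs on the real arrays. Python 3.11.15, pandas 2.3.3, numpy 2.4.6 and matplotlib 3.10.9 made tables and figures.

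Genes, lists and contrasts were chosen with earlier results of these data known. The rule for named genes took the 10 largest rises and falls called late (5 early), the 5 farthest past at each time in each direction, the 5 largest per ligand pair, the lasting and 10 largest building-up genes, the 10 most like Cyp26a1, and any member of the 28 lists (441 of 474 entries measured). Fdx1, Bak1, Pbx2, Gys1, Lipe, Heg1 and Kbtbd11 fall outside this rule and were named after their values were seen. Other settings tried were quantile normalization, centring, a dim-gene filter, the mean of probe sets, eBayes with trend, no common steps, fewer groups, other fold thresholds, single vehicle arrays and leaving out each vehicle or BMS753 array; ATRA arrays were left out together only.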

Additional observations from a re-analysis of the deposited data

Results flagged for a closer look

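The change of Cyp11a1 from early to late with BMS753, 1.94 log2, differed from 0 in limma (adjusted p = 0.0280), with all its late levels above all its early ones.

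For 4 of the genes named by the rule, among 73 called, the change from early to late differed between BMS753 and ATRA in a limma contrast added after the data were seen, each with 1 array per ligand and time. The difference was 2.49 log2 for Cyp11a1 and 2.48 for Notum, both with an adjusted p of 0.00932. It was 2.22 for Cdk15 (adjusted p = 0.0446) and -1.38 for Bcor (adjusted p = 0.0237). Without any one of the BMS753 arrays the adjusted p of these 4 genes lay between 0.0633 and 0.343.

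Probe sets with no listed gene were not part of the comparisons. Of 12146 such probe sets, 142 lay at least 2-fold past both vehicle arrays at 2 h, 109 at 6 h, 95 at 24 h and 99 at 48 h. Their share, 1.169% at 2 h and 0.815% at 48 h, stands beside 0.0251% and 0.326% of genes at the same times.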

How the results depend on the processing

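The 13 late changes named by the rule kept their direction in all 155 values under other settings. Of these values, 100 stayed called and 55 did not. The kept direction was largely fixed in advance. The rule took only genes with both late levels outside the vehicle range on the same side. Several settings also left the estimate itself unchanged. The late count of 37 was 1 after quantile normalization, 21 with arrays centred on their median, 2 with BMS753 and vehicle arrays only and 66 without the ATRA arrays, and leaving out single arrays gave 0 to 739. The early count of 0 was 1 without common steps, and 0 to 1288 with single arrays left out. Late against early, the count of 1 was 0 after quantile normalization, 6 with centred arrays, 3 for genes above the median mean, 2 with the mean of probe sets, 5 with trend and robust eBayes, 0 with BMS753 and vehicle only, 5 without ATRA, and 0 without any one of the BMS753 arrays. Late against BMS641 1 gene was called without common steps. Against ATRA late the count was 56 without the BMS753 24 h array and 17 without the 48 h array, and the added contrast with ATRA gave 0 to 431. With a vehicle array left out, the difference between the vehicle arrays no longer entered the error of any contrast. What part this had, and the cause of the other shifts, was not tested. For the single times 2, 6, 24 and 48 h, a 1.5-fold threshold gave 132, 45, 172 and 308 genes and a 3-fold one 0, 1, 2 and 10. Against vehicle replicate 1 alone the counts were 532, 504, 377 and 343, against replicate 2 alone 53, 49, 216 and 418, and against their mean 60, 39, 86 and 191; with centred arrays 9 were past at 2 h. Different probe sets of a gene disagreed at 48 h for Heg1 (1.55 and 0.27 log2) and Kbtbd11 (1.22 and 0.09). No paired analysis was possible because the BMS753 arrays carry no replicate numbers. With 1 array per time, no value at a single time has an error.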
